A study of Mus musculus with 23 samples.

Results

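Type I interferon response genes were represented by 9 genes of the 56748 listed in the count table, namely Irf1, Irf7, Isg15, Ifit1, Ifit3, Oasl2, Rsad2, Bst2 and Mx1. They were chosen by name, as well-known genes induced by type I interferon, and not by a threshold on their values. The choice was made with earlier results of these data known. All 9 passed the filter on low counts in the IP and in the IT tumors. RNA was measured in 23 melanoma tumors grown from B16-F1 cells, a melanoma line from C57BL/6 mice, injected under the skin of DBA/2J mice aged 6 to 8 weeks. Treatment began on day 6 and tumors were collected on day 14. Pentoxifylline (PTX), a methylxanthine drug, and norcantharidin (NCTD), a demethylated form of cantharidin, were given alone or together into the peritoneum (IP) or into the tumor (IT). The study asked how these drugs act on the tumor, and the comparisons below ask whether the interferon response genes differed between each treatment and the control of its route.

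CONTROL_IP received saline, PTX_IP received PTX at 60 mg/kg, NCTD_IP received NCTD at 3 mg/kg and MIX_IP received both at these doses, with 2 tumors in each group. CONTROL_IT received DMSO and held 4 tumors, PTX_IT received PTX at 60 mg/kg and held 3, NCTD_IT received NCTD at 3 mg/kg and held 4, and MIX_IT received both and held 4. In the methods the drugs were dissolved in saline for the IP route and in DMSO for the IT route. The batch given in the labels is the route itself, so route, vehicle and batch cannot be told apart. The tumor line and the host are of different strains, and the RNA is of the whole tumor. Fewer cells of a type and less RNA per cell cannot be told apart in such samples. The melanoma markers Mlana, Pmel, Tyrp1, Dct, Tyr, Mitf and Sox10 had counts in every tumor, with a summed level of 15172 to 37029.7 CPM (counts scaled to the size of the library).

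Type I interferons are cytokines released when a cell senses foreign or misplaced nucleic acid. They bind the receptor formed by Ifnar1 and Ifnar2, which activates the kinases Jak1 and Tyk2 and transcription factors that include Stat2 and Irf9. These bind the interferon-stimulated response element (ISRE) in the promoters of target genes, and the products of these genes block viruses or tune the response itself. Interferon gamma acts through a different receptor and through the gamma-activated site (GAS), so the target genes of both cytokines overlap. In tumors, both infiltrating leukocytes and tumor cells can express these genes.

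The promoters of the members differ in which of these elements were found. They are shown because interferons act on target genes through such elements, which was not tested for the members. Windows of 300 bases around the start, 250 before it and 50 after it, were found for 8 of the 9 members in the RefSeq promoter table (build GRCm38.p6), with 2 windows for Irf1. The ISRE was searched as GAAA, any 2 bases and GAAA on either strand, and the GAS as TTC, any 3 bases and GAA, a pattern that reads the same on both strands. Motif bases are in capitals, and overlapping matches merge into a run. The stretches around the matches, 5′ to 3′ on the strand of the gene, were as follows.
Irf1, GAS, chr11:53769904-53769952, plus strand: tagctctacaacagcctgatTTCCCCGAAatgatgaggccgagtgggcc
Isg15, ISRE, chr4:156200855-156200916, minus strand: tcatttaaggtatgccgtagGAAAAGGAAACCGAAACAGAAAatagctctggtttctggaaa
Ifit1, ISRE, chr19:34640765-34640833, plus strand: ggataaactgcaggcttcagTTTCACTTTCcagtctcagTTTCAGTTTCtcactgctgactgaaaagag
Ifit3, ISRE, chr19:34583353-34583436, plus strand: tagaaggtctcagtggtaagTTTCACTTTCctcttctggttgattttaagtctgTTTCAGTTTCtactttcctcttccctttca
Rsad2, ISRE, chr12:26456543-26456592, minus strand: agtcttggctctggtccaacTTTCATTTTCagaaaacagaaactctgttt
Bst2, GAS then ISRE, chr8:71537567-71537628, minus strand: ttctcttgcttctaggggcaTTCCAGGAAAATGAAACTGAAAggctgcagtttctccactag

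The ISRE letters were found in 5 members. Isg15 held 3 overlapping matches whose first bases lie 78, 72 and 66 bases upstream of the start. Ifit1 held 2 matches, at 104 and 85 bases, and Ifit3 held 2, at 156 and 122 bases. Rsad2 held 1, at 120 bases, and Bst2 held 2 overlapping ones, at 130 and 124 bases. Irf1, Irf7 and Oasl2 held none in these windows, which says only that these letters are not there. The GAS letters were found in Irf1, at 90 bases upstream, and in Bst2, at 136 bases, where they overlap the ISRE run. Of the 32851 windows in the table, 3.44% held the ISRE letters and 8.30% held the GAS letters. Mx1 had no entry in this table. A match is a description of the sequence and not a site of binding.

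The count table gives the genes on GRCm39. Irf1 lies on chromosome 11 from 53660841 to 53669200 (plus strand), Irf7 on chromosome 7 from 140842619 to 140846394 (minus strand) and Isg15 on chromosome 4 from 156283912 to 156285253 (minus strand). Ifit1 and Ifit3 are neighbors on the plus strand of chromosome 19, from 34618271 to 34627409 and from 34560931 to 34566131. Oasl2 lies on chromosome 5 from 115034997 to 115050295 (plus strand), Rsad2 on chromosome 12 from 26492745 to 26506451 (minus strand), Bst2 on chromosome 8 from 71986899 to 71990100 (minus strand) and Mx1 on chromosome 16 from 97248235 to 97264107 (minus strand). Irf1 overlaps the antisense gene Gm17334, which had 296 counts over all tumors, and Irf7 overlaps Phrf1 on the opposite strand, which had 2345. Ifit1 and Ifit3 have near-identical copies, so reads may have been split between the copies.

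The tumors held between 2861578 and 6702374 counts, with a median of 4013068, and 3 counts correspond to 0.449 to 1.04 CPM. That floor covers counting error only. Levels are given in CPM after TMM scaling, and fold changes as log2 with the standard error of edgeR's quasi-likelihood fit. A gene was called when its Benjamini-Hochberg adjusted p over all genes tested was below 0.05. Tumors are named by group and replicate number. Nothing in the labels says that each tumor came from a separate mouse, so p-values measure only the spread between these samples. Xist, expressed from the inactive X chromosome of females, was above 1 CPM in 4 of 4 NCTD_IT, 3 of 3 PTX_IT and 1 of 2 CONTROL_IP tumors and in no tumor of the other groups. Y-linked genes were above 1 CPM in 4 of 4 CONTROL_IT and 4 of 4 MIX_IT tumors and in none of NCTD_IT or PTX_IT. The sex of the host therefore cannot be told apart from the drug in NCTD_IT and PTX_IT against CONTROL_IT, whereas MIX_IT and CONTROL_IT matched. The same limit holds for MIX_IT against NCTD_IT or PTX_IT, and for comparisons built from these groups. Among the IP tumors, Y-linked genes were above 1 CPM in 1 of 2 CONTROL_IP tumors and in 2 of 2 of each treated group. Host sex was therefore not balanced in the IP comparisons either.

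The dominant feature of the members was a large spread between tumors of the same group. Over all tumors of the 8 groups, the highest exceeded the lowest by 5.28 times for Bst2. For the 7 members other than Bst2 and Mx1 it did so by 8.17 to 11.7 times, while Mx1 had 0 counts in 1 tumor. These ranges hold differences between groups as well. The standard deviation within groups was 0.71 to 1.30 on the log2 scale, against a median of 0.44 over the 13395 genes that passed the filter across all tumors. Between 72.2% (Bst2) and 97.3% (Mx1) of these genes had a smaller spread than the member. The 8 groups accounted for 15.05% (Ifit3) to 36.1% (Rsad2) of a member's variance, against 34.5% for the median gene and 31.8% expected when groups do not differ. In 8 of the 9 members, all but Rsad2, the groups accounted for less of the variance than in the median gene.

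**Figure D1:**
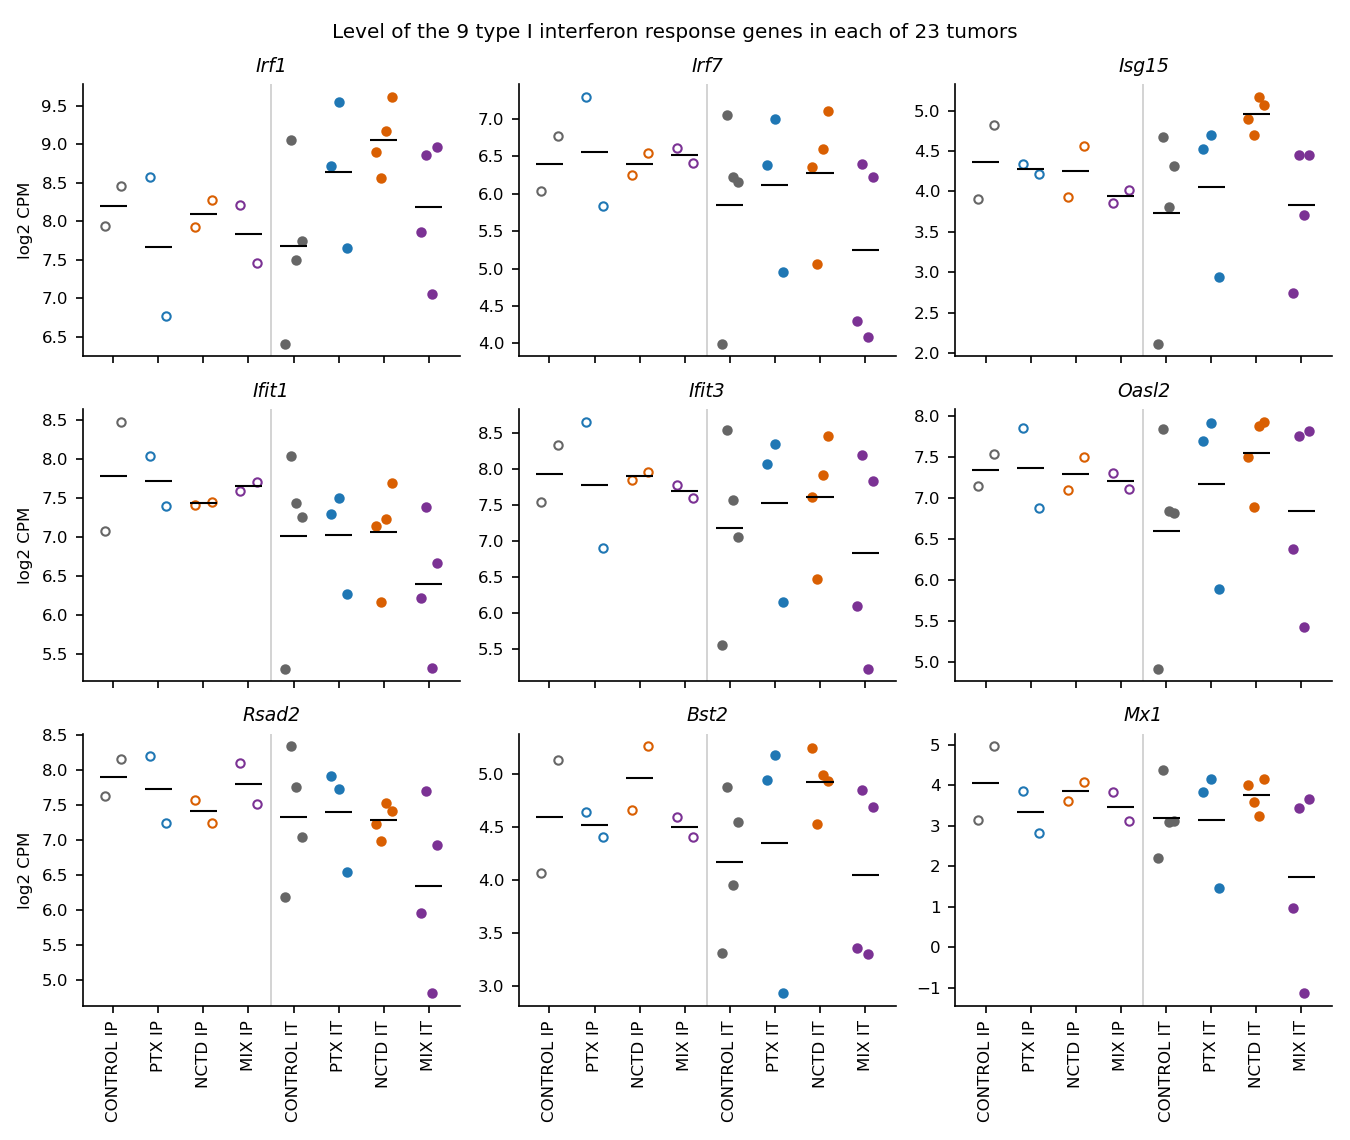
Level of each member in log2 CPM (vertical axis) in the 8 groups (horizontal axis), with 1 point per tumor, open for IP and filled for IT, and a line at the group mean. The lowest point of each panel is a tumor of CONTROL_IT (5 members), MIX_IT (3) or PTX_IT (1).

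Irf1 and Irf7 are transcription factors that carry the response forward. Irf1 responds to both types of interferon and drives antigen-processing genes, and Irf7 amplifies the production of interferon alpha. Irf1 was at 84.2, 533.5, 180.4 and 213.0 CPM in CONTROL_IT 9, 10, 11 and 12, and at 477.6, 377.7, 575.3 and 785.4 CPM in NCTD_IT 17, 18, 19 and 20. All NCTD_IT tumors exceeded 3 of the CONTROL_IT tumors, but CONTROL_IT 10 lay within their range. Irf1 was at 420.0, 752.2 and 201.4 CPM in PTX_IT 13, 15 and 16, and at 231.4, 463.9, 133.0 and 500.2 CPM in MIX_IT 21, 22, 23 and 24. Both of these groups overlapped CONTROL_IT. In the IP tumors Irf1 lay between 108.3 and 380.7 CPM, the extremes being both PTX_IP tumors.

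Irf7 was at 15.4, 132.1, 74.3 and 70.7 CPM in CONTROL_IT, in the order of the replicate numbers, and at 81.9, 32.9, 96.1 and 136.8 CPM in NCTD_IT. It was at 83.1, 127.0 and 30.6 CPM in PTX_IT and at 19.3, 84.0, 16.5 and 74.1 CPM in MIX_IT. Every IT group thus held at least 1 tumor with a low Irf7 level, and all 4 groups overlapped. The 8 IP tumors lay between 56.6 and 156.6 CPM.

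Isg15 encodes a ubiquitin-like protein that is joined to other proteins during the response. It was at 3.86, 25.2, 13.6 and 19.5 CPM in CONTROL_IT and at 29.4, 25.6, 35.6 and 33.1 CPM in NCTD_IT. It was the 1 member whose NCTD_IT tumors all lay above all CONTROL_IT tumors, by a margin of less than 1 CPM at the closest pair, whereas 16.1% of all genes had NCTD_IT and CONTROL_IT levels free of overlap. Isg15 was at 22.6, 25.5 and 7.19 CPM in PTX_IT, at 6.21, 21.4, 12.6 and 21.5 CPM in MIX_IT and between 14.1 and 27.8 CPM in the IP tumors.

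Ifit1 binds foreign RNA and Ifit3 is its partner, Oasl2 belongs to the oligoadenylate synthetase family and Rsad2 (viperin) is an antiviral enzyme. Ifit1 was at 39.1, 262.0, 172.6 and 151.6 CPM in CONTROL_IT, at 140.0, 71.4, 149.4 and 205.9 CPM in NCTD_IT, at 156.6, 180.1 and 76.3 CPM in PTX_IT and at 73.9, 166.4, 39.6 and 101.1 CPM in MIX_IT. The IT groups overlapped, and the IP tumors were at 134.3 to 355.4 CPM, with CONTROL_IP 2 above every IT tumor. Ifit3 ranged from 46.6 to 373.3 CPM in CONTROL_IT, 88.7 to 350.7 CPM in NCTD_IT, 70.6 to 326.5 CPM in PTX_IT and 37.1 to 291.7 CPM in MIX_IT. Oasl2 ranged from 29.9 to 228.7 CPM in CONTROL_IT, 118.7 to 244.0 CPM in NCTD_IT, 59.1 to 240.4 CPM in PTX_IT and 42.7 to 225.5 CPM in MIX_IT. The highest tumor of each IT group was within a narrow band for Oasl2, and the groups differed mainly in their lowest tumor. Rsad2 was at 72.4, 323.8, 216.9 and 132.1 CPM in CONTROL_IT, at 150.2, 126.9, 184.3 and 170.1 CPM in NCTD_IT, at 240.2, 211.4 and 93.2 CPM in PTX_IT and at 61.7, 207.0, 27.7 and 121.3 CPM in MIX_IT. NCTD_IT had the narrowest range of the IT groups here, and it lay inside that of CONTROL_IT.

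Bst2 (tetherin) holds budding virus particles at the cell surface, and Mx1 is a dynamin-like protein whose gene carries a disabling deletion in many inbred strains of mice. Bst2 ranged from 9.53 to 28.9 CPM in CONTROL_IT, 22.6 to 37.6 CPM in NCTD_IT, 7.19 to 35.8 CPM in PTX_IT and 9.47 to 28.4 CPM in MIX_IT. Mx1 was at 4.12, 20.4, 8.06 and 8.20 CPM in CONTROL_IT, at 15.7, 11.5, 8.99 and 17.3 CPM in NCTD_IT, at 13.7, 17.4 and 2.31 CPM in PTX_IT and at 1.499, 10.3, 0 and 12.2 CPM in MIX_IT. The 0 in MIX_IT 23 allows a level of up to 0.728 CPM at that depth. For Bst2, 3 of the 4 NCTD_IT tumors lay above the highest CONTROL_IT tumor and NCTD_IT 18 lay inside the CONTROL_IT range. For Mx1 all 4 NCTD_IT tumors lay inside that range.

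By edgeR's quasi-likelihood test, none of the 9 members was called when each treatment was set against its own control, in 6 comparisons. At an unadjusted p below 0.05 there was 1 member in NCTD_IT and 0 in each of the other 5 comparisons. DESeq2 on the 2 groups called 0 members in each. The share of all genes that DESeq2 called is not given here, so nothing is read from its count. The share of all genes called by edgeR was 1.37% in NCTD_IT against CONTROL_IT (171 of 12480). It was 0% in PTX_IT, MIX_IT, PTX_IP, NCTD_IP and MIX_IP against their controls. The 171 genes called in NCTD_IT became 0 to 191 when single tumors of both groups were left out, with at most 1 without CONTROL_IT 9, 11 or 12 or NCTD_IT 17 or 18 and 71 without NCTD_IT 19. The standard errors of the members had a median of 0.51 in NCTD_IT, 0.54 in PTX_IT and 0.51 in MIX_IT on the log2 scale.

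In NCTD_IT against CONTROL_IT, 7 of the 9 members had a log2 fold change above 0, with a median of 0.38 against 0.03 over all genes tested. Irf1 had the largest value, 1.12 (SE 0.51, 95% interval 0.04 to 2.21, unadjusted p = 0.0433, adjusted p = 0.215 in edgeR's quasi-likelihood test). Isg15 followed at 0.98 (SE 0.48, adjusted p = 0.246) and Rsad2 had the lowest value, -0.24 (SE 0.50). Leukocyte markers also had higher fitted values in NCTD_IT. Their median log2 fold change was 1.35 over the 4 markers of all leukocytes and 1.26 over 10 macrophage and monocyte markers. It was 1.84 over 10 markers of T and NK cells, with 0 called in any of these lists. Of the 3 neutrophil markers tested, 2 were called higher. The 6 neutrophil markers summed to 26.6, 1060.0, 45.8 and 17.5 CPM in NCTD_IT 17, 18, 19 and 20. In CONTROL_IT they summed to 2.29 to 8.78 CPM, and NCTD_IT 18 stood far above the rest. The summed level of the 4 general leukocyte markers was 88.2 to 411.9 CPM in NCTD_IT and 17.7 to 175.1 CPM in CONTROL_IT, and that of the 11 T and NK cell markers was 41.4 to 474.2 CPM and 3.34 to 222.2 CPM, with overlap in both. Markers of other cells moved as well. The median was 2.02 over 5 fibroblast markers and 1.15 over 4 endothelial markers, with 0 called. It was -0.38 over 7 melanoma markers, with 1 called lower, and -1.77 over 4 erythroid markers, with 0 called. The summed level of the 6 fibroblast markers was 369.7 to 1606.3 CPM in NCTD_IT and 105.2 to 364.6 CPM in CONTROL_IT. The part of all these markers in the values of the members was not tested.

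In PTX_IT the members ranged from -0.20 (Ifit1) to 0.84 (Irf1, SE 0.54, adjusted p = 0.815), with a median of 0.22 against 0.02 over all genes. In MIX_IT they ranged from -0.85 (Rsad2, SE 0.50, adjusted p = 0.495) to 0.38 (Irf1), with a median of -0.26 against 0.01, and 7 of 9 were below 0. In PTX_IT the median log2 fold change was 1.45 over the T and NK cell markers, 1.26 over the general leukocyte markers and 0.92 over the macrophage and monocyte markers, with 0 called. In MIX_IT these medians were 0.65, 0.29 and 0.38, and that of the 5 fibroblast markers tested was 3.52, with 0 called. The fibroblast median was 1.32 in PTX_IT, with 0 called. The summed level of the 6 fibroblast markers was 486.3 to 8460.0 CPM in MIX_IT and 105.2 to 364.6 CPM in CONTROL_IT. MIX_IT 23 stood apart in this, with the highest fibroblast sum and the lowest melanoma sum of all tumors, 15172 CPM. Without it Rsad2 in MIX_IT was at -0.53 (adjusted p = 0.813). The part of these markers in the members' values was not tested. The 3 IT comparisons share the CONTROL_IT tumors. In all 3 of them Irf1 had the highest value of the members. In the IP tumors the medians were -0.11 in NCTD_IP, -0.17 in PTX_IP and -0.28 in MIX_IP, and the members lay between -0.91 and 0.30, with adjusted p of at least 0.915. The intervals of single members reached from -2.23 to 1.22 in these groups of 2 tumors. Changes of several times in either direction were therefore not detectable for some members. CONTROL_IP 2, the CONTROL_IP tumor with Xist, was the highest of all tumors for Ifit1 and Mx1. Host sex was not balanced between CONTROL_IP and the treated IP groups, and its part in these values was not tested.

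**Figure D2:**
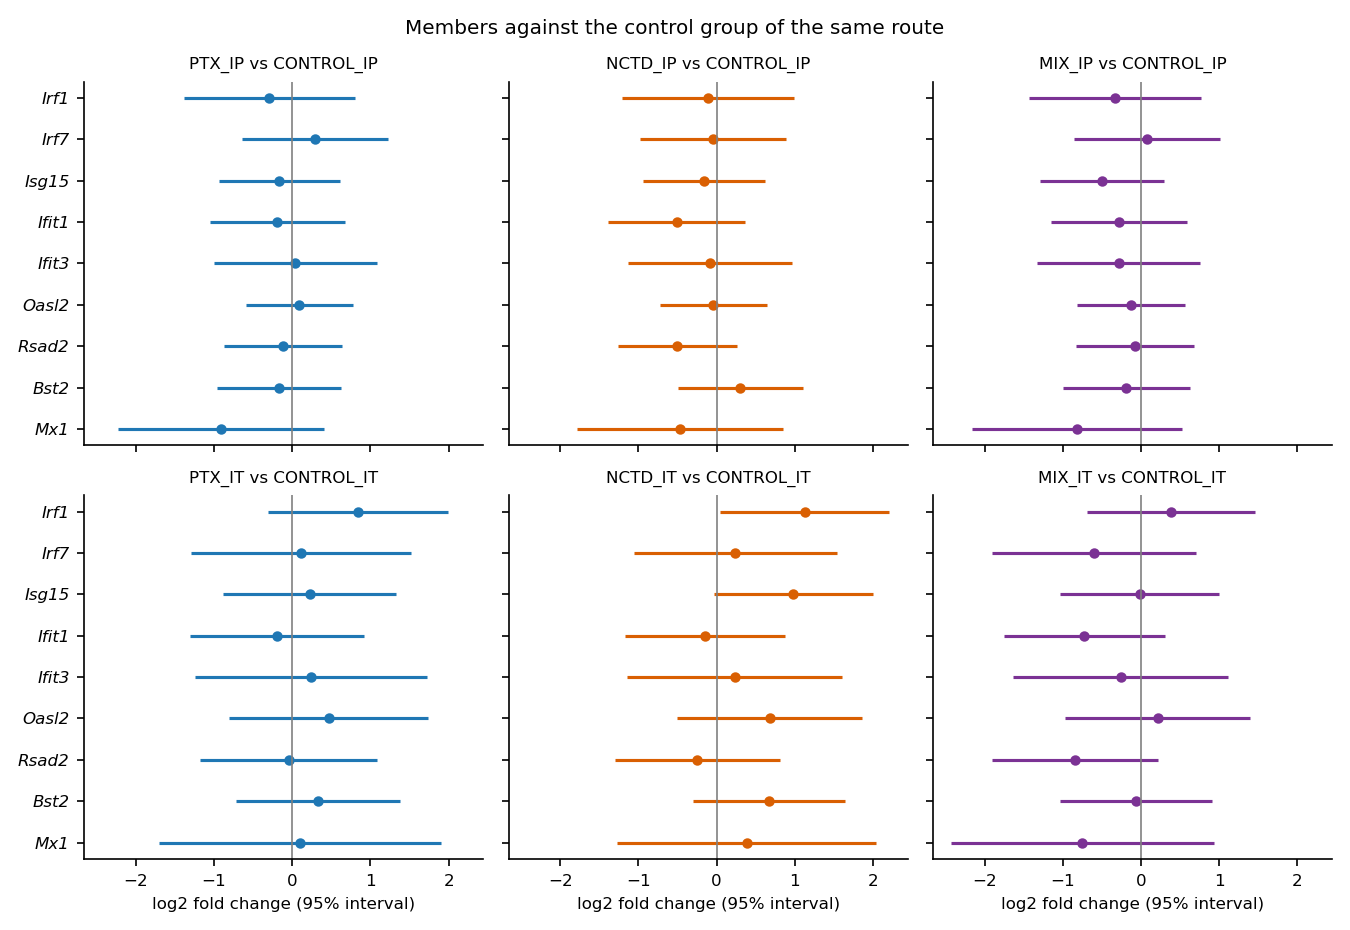
Log2 fold change of each member (horizontal axis, with the 95% interval of edgeR's fit) in the 6 comparisons of a treatment with the control of its route. All intervals but 1 include 0, and that of Irf1 in NCTD_IT, 0.04 to 2.21, is the exception.

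The drugs and routes were also compared with each other. No member was called in NCTD_IT against PTX_IT (0% of genes), MIX_IT against NCTD_IT (0.00801%, 1 gene) or MIX_IT against PTX_IT (0%), and none had an unadjusted p below 0.05. All 9 members had a lower fitted level in MIX_IT than in either single drug. The medians were -0.74 against NCTD_IT and -0.50 against PTX_IT, with intervals that reached from -2.81 to 1.02 over the members. By Xist and Y-linked genes, MIX_IT differed in host sex from both single-drug groups. Sex therefore cannot be told apart from the drug here or in the departure that follows. The departure of MIX_IT from the sum of both single-drug effects was below 0 for all 9 members, with a median of -0.96. Irf1 had the largest departure, -1.59 (SE 0.75, unadjusted p = 0.0490, adjusted p = 0.440 in edgeR's quasi-likelihood test), where 0.0401% of all genes were called.

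The effect of a drug by the IT route minus its effect by the IP route gave no called member for NCTD, PTX or MIX, with 0% of genes called in each. For Irf1 this difference was 1.25 (SE 0.88) for NCTD, 1.14 (SE 0.90) for PTX and 0.73 (SE 0.88) for MIX. With drug in the model, the IT tumors differed from the IP tumors by a median of -0.31 over the members, and 0 of 9 were called against 0.366% of all genes. Ifit1 was the member with an unadjusted p below 0.05 there, at -0.67 (SE 0.27, adjusted p = 0.271). DESeq2 called 0 members in each of these 8 comparisons, and its share of all genes is not given here.

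Although the groups did not separate, the members varied together from tumor to tumor. Over the 23 tumors the 36 pairs of members had Pearson's r between 0.49 (Irf1 and Ifit1) and 0.97 (Irf7 and Ifit3), with a median of 0.82, and Spearman's rho between 0.32 and 0.94. The two-sided permutation p of r was at most 0.0171 for each of the 36 pairs, unadjusted for the number of pairs, and the smallest was 1e-05, the smallest that 100000 permutations can give. For rho the permutation p was below 0.05 for 32 pairs, and the largest was 0.137. Without the 2 tumors farthest from the median of the first gene, r lay between 0.36 and 0.95 with a median of 0.75, and 33 of 36 pairs had a p below 0.05. Within the 15 IT tumors the median r was 0.85, and within the 8 IP tumors it was 0.69, with r as low as 0.10.

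After the mean of each group was subtracted, r lay between 0.68 and 0.98, with a median of 0.87. Pairs with Irf1 gained most from this step, their median moving from 0.70 to 0.86. Irf1 therefore followed the other members closely inside a group, and less closely across groups.

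**Figure D3:**
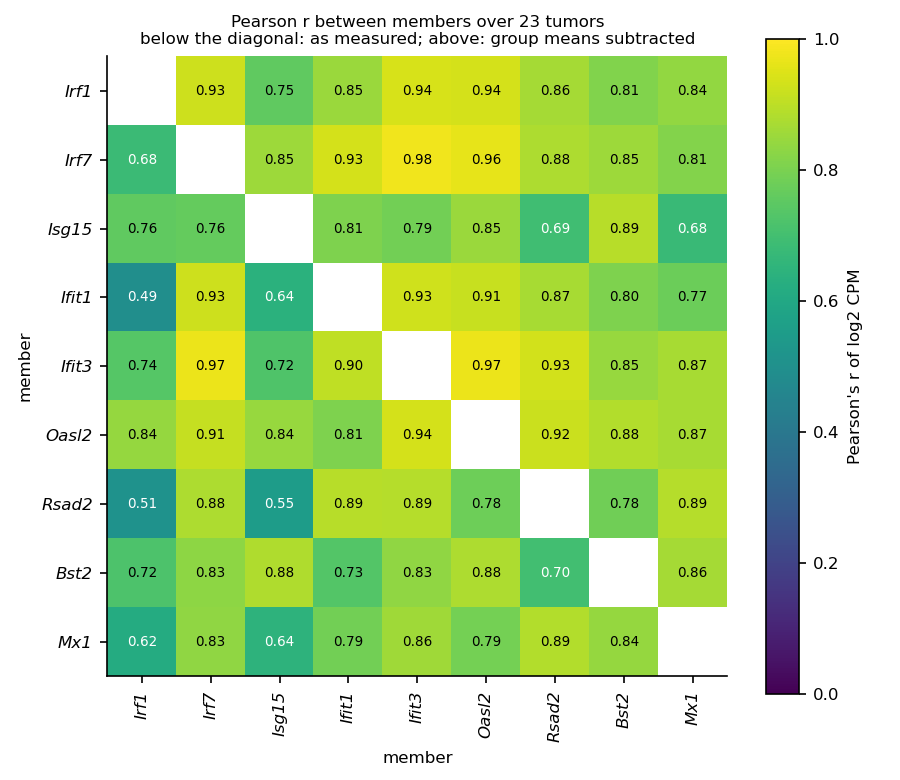
Pearson's r of log2 CPM between each pair of members over 23 tumors, as measured below the diagonal and with group means subtracted above it. Irf1 has its lowest values below the diagonal, 0.49 with Ifit1 and 0.51 with Rsad2, and they are higher above it.

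The lowest levels of the members were found in few tumors. CONTROL_IT 9 had the lowest level of all tumors for 5 members, MIX_IT 23 for 3 and PTX_IT 16 for 1. The mean log2 CPM of the members was 4.20 in MIX_IT 23, 4.44 in CONTROL_IT 9, 4.88 in MIX_IT 21 and 4.98 in PTX_IT 16, and 5.83 to 6.98 in the other 19 tumors. The summed level of the 11 T and NK cell markers was 9.86, 3.34, 16.4 and 10.1 CPM in these 4 tumors, and 16.5 to 474.2 CPM in the other tumors. In MIX_IT 23 only 2 of these 11 markers had counts. The 4 general leukocyte markers summed to 51.7, 17.7, 41.8 and 32.4 CPM against 47.7 to 411.9 CPM, and the 10 macrophage and monocyte markers to 503.7, 224.8, 361.9 and 189.8 CPM against 312.0 to 1659.3 CPM. MIX_IT 23, the tumor with the lowest mean of the members, was thus inside the range of the other tumors for both of these lists. The part of immune cell content in the members' levels was not tested.

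Genes outside the 9 members followed the same pattern. By Pearson's r with the mean z-score of the members over 23 tumors, the 10 most similar of 13386 genes were Herc6, Phf11b, Ifi44, Parp9, Stat2, Psmb8, Trim30a, Ifi203, Psmb9 and Cmpk2, with r from 0.97 down to 0.95. With group means subtracted they were Herc6, Psmb8, Ifi44, Dhx58, Parp9, Trim30a, Ifi47, Phf11b, Psmb10 and Gm12185, with r from 0.99 to 0.97, and 6 genes were in both lists.

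Irf1 departed from the shared pattern in the treated IT tumors. Its ratio to Ifit1 in CPM, a pair chosen after the values were seen, was 1.05 to 2.15 in CONTROL_IT, 3.41 to 5.29 in NCTD_IT, 2.64 to 4.18 in PTX_IT and 2.79 to 4.95 in MIX_IT. It was 0.647 to 1.82 in the 8 IP tumors. The 11 treated IT tumors, at 2.64 or more, thus all lay above the 12 other tumors. The ratio compares tumors and not the amounts of the 2 transcripts. Of the 36 pairs of members, 2 (5.56%) had ratios that separated these tumors in this way, Irf1 with Ifit1 and Irf1 with Mx1.

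**Figure D4:**
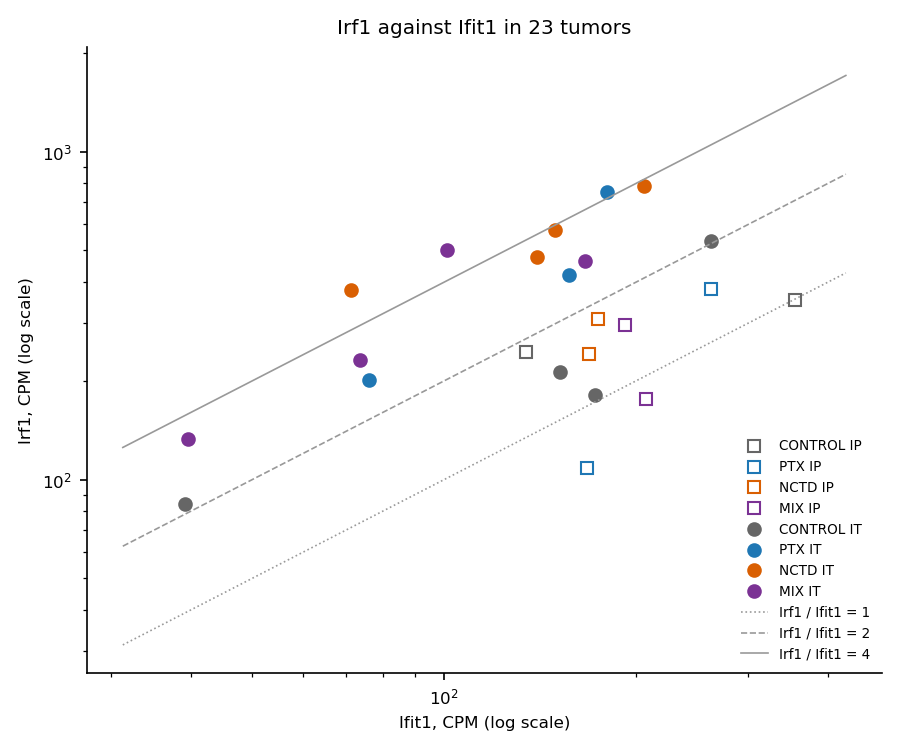
Irf1 against Ifit1 in CPM on log axes, with 1 point per tumor, squares for IP and circles for IT, and lines at ratios of 1, 2 and 4. The 11 treated IT tumors form a band above the CONTROL_IT and IP tumors at both low and high Ifit1.

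The same Irf1 values were also set against all other members at once, Ifit1 among them, so this is not a separate observation. In MIX_IT 23 the mean of the others includes Mx1 at 0 counts, which raises the relative level of the other members there. The log2 CPM of Irf1 minus the mean log2 CPM of the other 8 members was 1.66 to 2.34 in CONTROL_IT, 2.65 to 3.02 in NCTD_IT, 2.38 to 3.01 in PTX_IT and 2.59 to 3.35 in MIX_IT. On this relative scale, chosen after seeing the data, Irf1 and Oasl2 were free of overlap with CONTROL_IT in all 3 treated IT groups, both higher, and Ifit1 was free of overlap and lower in NCTD_IT, at 0.32 to 0.85 against 0.97 to 1.59. That is 3 of 9 members in NCTD_IT, 2 in PTX_IT and 2 in MIX_IT. Over all genes the share free of overlap on the relative scale was 3.19% in NCTD_IT, 1.25% in PTX_IT and 1.05% in MIX_IT. Subtracting the mean of the members adds their spread to each gene that does not follow them. These shares are therefore no background for the members, and nothing is read from them or from the counts of members beside them. On the scale of levels the count was 1 of 9 in NCTD_IT (16.1% of all genes), 0 in PTX_IT (7.77%) and 0 in MIX_IT (9.5%). Over the 123 genes of the pathway lists that are no members, the share was 6.5%, 1.63% and 0.813% on levels, below that of all genes, and 14.6%, 7.32% and 3.25% on the relative scale.

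Isg15 and Rsad2 gave a second contrast of this kind. Their ratio in CPM was 0.193 to 0.201 in the 4 NCTD_IT tumors, 0.0534 to 0.148 in CONTROL_IT, 0.0771 to 0.120 in PTX_IT and 0.0513 to 0.153 in the IP tumors. NCTD_IT was above all of these, and MIX_IT, at 0.101 to 0.456, overlapped both sides. The pair was chosen after its values were seen, and 2 of the 36 pairs (5.56%), this and Isg15 with Ifit1, set NCTD_IT apart from CONTROL_IT, PTX_IT and the IP tumors. Against CONTROL_IT alone, 9 of the 36 ratios (25%) were free of overlap in NCTD_IT, 3 (8.33%) in PTX_IT and 8 (22.2%) in MIX_IT. On the relative scale neither Isg15 nor Rsad2 was free of overlap in NCTD_IT.

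**Figure D5:**
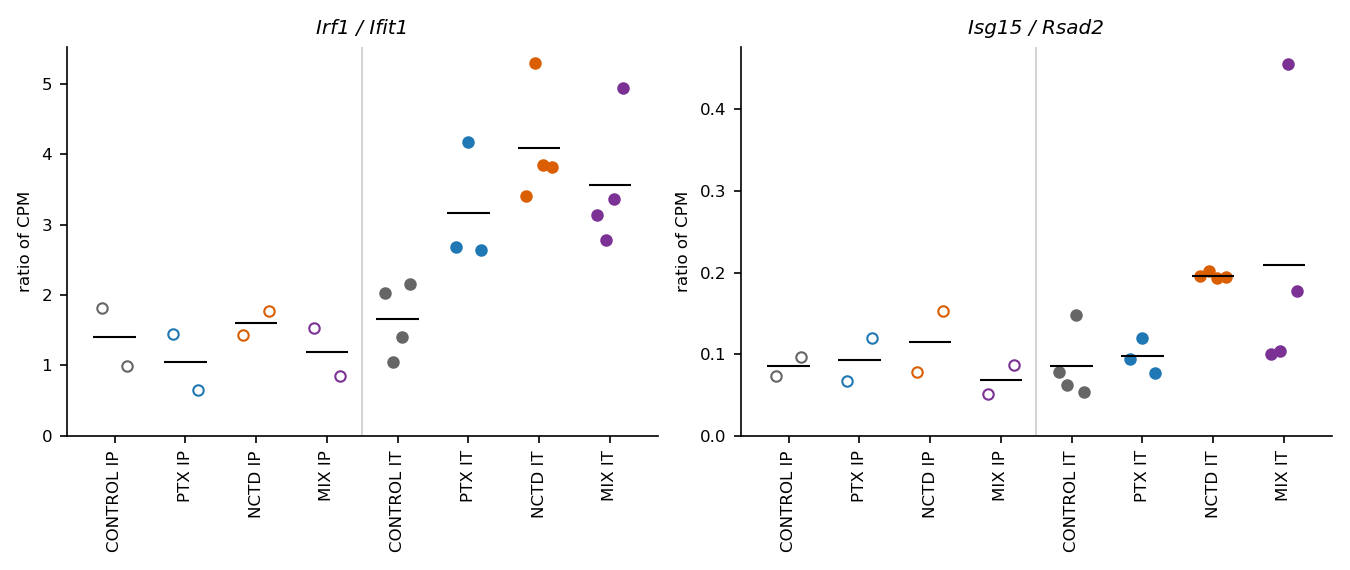
Ratio of Irf1 to Ifit1 (left) and of Isg15 to Rsad2 (right) in CPM by group, with 1 point per tumor, open for IP and filled for IT, and a line at the group mean. The Irf1 ratio is 2.64 or more in all treated IT tumors, and the Isg15 ratio lies within 0.193 to 0.201 in NCTD_IT.

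To compare treatments at a like level of the interferon response, the mean log2 CPM of 65 other interferon effector genes was added to edgeR's model as a covariate, an alternative also chosen after seeing the data. The median standard error of the members then fell to 0.20 in NCTD_IT, 0.21 in PTX_IT and 0.20 in MIX_IT. Irf1 was the 1 member called, at 0.86 on the log2 scale in NCTD_IT (SE 0.19, adjusted p = 0.0221 in edgeR's quasi-likelihood test), where 6.37% of all genes were called (795 of 12480). Host sex cannot be told apart from the drug in this comparison, and no fit held both this covariate and Xist. Without CONTROL_IT 9, 11 or 12 or NCTD_IT 18 the call was lost, with adjusted p of 0.0589, 0.0724, 0.0692 and 0.0848 and log2 fold changes of 0.74 to 0.92. The count of all genes called depended on single tumors as well. It was 75, 16, 0 and 0 without these 4 tumors in turn, with 2288 to 2644 genes at an unadjusted p below 0.05, and 226 without NCTD_IT 17, 457 without PTX_IT 13, 434 without MIX_IT 22 and 1372 without PTX_IT 16. Irf1 was at 0.70 in PTX_IT (SE 0.20, adjusted p = 0.496, 0% of genes called) and at 0.73 in MIX_IT (SE 0.19, adjusted p = 0.112, 0.00801% of genes called). Rsad2 moved the other way, at -0.54 (SE 0.19, adjusted p = 0.0913) in NCTD_IT and -0.74 (SE 0.19, adjusted p = 0.112) in MIX_IT. No member was called with this covariate in NCTD_IP, PTX_IP or MIX_IP, where 0% of genes were called and Irf1 lay between -0.24 and 0.15.

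The rest of the pathway was read in the same fits, from a list of 128 genes of the type I interferon pathway that holds no member, of which 100 were tested. The type I interferons themselves were close to undetected. Of 18 type I interferon genes, 15 had 0 counts in all 23 tumors. Ifnb1 had 19 counts in total, Ifnz had 9 and Ifna11 had 2, and none of the 18 passed the filter. Ifng, the gene of interferon gamma, ranged from 0 CPM in CONTROL_IT 9, NCTD_IT 18 and MIX_IT 21 to 10.9 CPM in NCTD_IT 20. The receptor genes were measured in all groups, with Ifnar1 at 17.1 ± 0.516 CPM (SD, n = 2) in CONTROL_IP and 14.8 to 16.9 CPM on average in the IT groups, and Ifnar2 at 21.8 to 29.2 CPM on average in the IT groups.

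Among the transducers, Stat2 had log2 fold changes of 0.40 (SE 0.44) in NCTD_IT, 0.25 (SE 0.47) in PTX_IT and -0.19 (SE 0.44) in MIX_IT against CONTROL_IT. Irf9 was at 0.03 (SE 0.28), 0.04 (SE 0.30) and -0.18 (SE 0.28) in the same order. Both differed from CONTROL_IT by less than 1 standard error. The feedback inhibitor Usp18 was at 0.04 (SE 0.49) in NCTD_IT and -0.92 (SE 0.49, adjusted p = 0.448) in MIX_IT.

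Of the 100 genes tested, 1 was called higher and 0 lower in NCTD_IT by edgeR, against 1.37% of all genes, and 0 were called in the other 5 comparisons. The median log2 fold change of the list was 0.33 in NCTD_IT, 0.19 in PTX_IT and -0.14 in MIX_IT, against 0.03, 0.02 and 0.01 over all genes. Among 22 genes of the interferon gamma pathway, all tested in the IT tumors, 0 were called, and the medians were 0.42, 0.40 and -0.10. The receptor gene Ifngr1 had the smallest adjusted p of that list in NCTD_IT, at a log2 fold change of 1.38 (SE 0.39, adjusted p = 0.0640 in edgeR's quasi-likelihood test), and was at 0.91 in PTX_IT and 0.98 in MIX_IT.

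The gene called was Irf4, an interferon regulatory factor of lymphocytes and of melanocytes that is not itself a usual interferon target. It was at 3.35, 3.07, 6.05 and 4.53 CPM in CONTROL_IT and at 13.7, 12.3, 12.1 and 18.1 CPM in NCTD_IT, a log2 fold change of 1.72 (SE 0.33, adjusted p = 0.0280 in edgeR's quasi-likelihood test). It was at 13.1, 11.3 and 7.19 CPM in PTX_IT (1.30, SE 0.35, adjusted p = 0.758) and at 5.78, 9.99, 11.2 and 10.7 CPM in MIX_IT (1.14, SE 0.33, adjusted p = 0.185). NCTD_IT and PTX_IT lay above CONTROL_IT without overlap, and 1 MIX_IT tumor fell inside the CONTROL_IT range. Of all genes, 16.1% were free of overlap with CONTROL_IT in NCTD_IT and 7.77% in PTX_IT. With 1 of 100 genes called against 1.37% of all genes, nothing about the pathway is read from Irf4. With Xist as a covariate the NCTD_IT value was 0.91 (adjusted p = 0.849), and without CONTROL_IT 9, 11 or 12 or NCTD_IT 17 or 18 the adjusted p was 0.115, 0.0975, 0.117, 0.0603 and 0.0894. In the IP tumors Irf4 was at 4.59 to 13.1 CPM.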

How the data were processed

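Libraries of the 3′ end of messenger RNA from 23 tumors were assigned to 8 groups by their labels. The authors used Trimmomatic for trimming and STAR 2.7.11b for alignment to GRCm39 (as named in the submitters' processing notes), and the deposited values are raw counts per gene from STAR. The strand setting, the treatment of multi-mapping reads and molecular identifiers are not given in the sources used here, so overlapping and near-identical genes may share reads. Pairs of tumors of a group differed by more than sampling noise (chi-square per degree of freedom 8.09 to 64.6 over 25 pairs).

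Tests on these counts used edgeR 4.0.16 and limma 3.58.1 under R 4.3.3. Genes were kept by filterByExpr (minimum count 10, minimum total 15) and scaled by TMM. The groups of a route entered a quasi-likelihood model, and all 23 tumors entered the comparisons of routes. All tests were two-sided, with Benjamini-Hochberg adjustment over all genes tested. Log2 CPM used a prior count of 2, and pairs of members were tested with 100000 permutations. The scripts were tested on simulated data. No replicate number is shared by tumors, so nothing pairs them.

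The members and gene lists were chosen with earlier results of these data known. Genes named were the 9 members, pathway genes that were called in an IT comparison or had the smallest p, the ligands, receptors and transducers (1 of which is not reported here), the 10 genes most like the members, and markers that moved with a result. DESeq2 1.42.0, the test in the authors' methods, was an alternative, with its size factors in edgeR, no filter, a fit to the 2 groups alone, all tumors in a model, protein-coding genes alone, Xist as a covariate and leaving out each tumor. A covariate of interferon effectors and relative levels were added after seeing the data. Tumor growth and protein data were not analysed here.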

Additional observations from a re-analysis of the deposited data

How the results depend on the processing

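No member was called under DESeq2, DESeq2's size factors in edgeR, a fit to the 2 groups alone, protein-coding genes alone, all 23 tumors in a model, Xist as a covariate or the omission of any tumor (range 0 to 0 called in each comparison). The share of all genes called under these settings is not given here, apart from the counts for NCTD_IT with single tumors left out. Without the filter on low counts, 2 members were called in NCTD_IT against CONTROL_IT (Irf1, Isg15), where 1190 of 26878 genes were called. In PTX_IT 1 member was called (Irf1, 222 of 26878 genes), and in MIX_IT 1 (Rsad2, 364 of 26878). In MIX_IT against NCTD_IT 1 was called (Irf7, 190 of 26878). In the departure of MIX_IT from the sum 1 was called (Irf1, 443 of 26878). The NCTD effect of IT minus IP had 1 (Irf1, 283 of 29064), and IT against IP had 3 (Irf1, Ifit1, Rsad2, 400 of 29064). That setting raised the calls over all genes in NCTD_IT from 171 of 12480 to 1190 of 26878, and the cause was not tested. With the interferon effectors as a covariate 1 member was called in NCTD_IT. Irf1 with that covariate ranged from 0.74 to 1.04 in NCTD_IT over the omission of each tumor, with the losses given above, and reached 0.72 (adjusted p = 0.0128) in MIX_IT without the filter. Pairs of members at an unadjusted p of r below 0.05 were 36 of 36, 33 without the 2 farthest tumors and 17 within the 8 IP tumors, and 32 by rho. Of 720 alternative values of 54 member fold changes, 61 moved by more than their standard error and 108 changed sign, 9 of them where the main value exceeded 0.5 in size. Where leaving out a tumor left 1 in an IP group, that tumor was assumed to vary like the other groups. No paired analysis was possible because no replicate number is shared by tumors. Groups of 2 to 4 tumors and standard errors near 0.5 limit what could be detected.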
